A study of Mus musculus with 25 samples.

Results

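The comparison set 2 hippocampal RNA-seq libraries of Scn1a+/- mice labelled as free of seizures against 3 libraries of wild-type mice. All animals were [129S6/SvEvTac x C57BL/6]F1 hybrids (here F1) at postnatal day 24 (P24), and the 5 libraries were chosen from the 25 of the series by their titles and labels. Each of the 5 libraries was made from the pooled hippocampi of 12 to 16 mice, so a library is an average over animals and shows nothing of the spread between mice. Nothing in the labels says whether the pools came from separate litters or days, so p-values measure only the spread between pools, which may be technical. The Scn1a+/- mice are heterozygous in all tissues, and both genotypes carry the phenotype label of no seizures. 3 further libraries of P24 F1 Scn1a+/- mice labelled with seizures, pools of 3 to 4 mice, were kept out of the test. Levels are given as CPM, counts scaled per 1e6 of the effective library size, and called genes are those with an adjusted p under 0.05 (Benjamini-Hochberg) in edgeR's quasi-likelihood test of 15690 genes. Log2 differences are Scn1a+/- minus wild type, and over all genes tested their median was -0.0024, with -0.0061 in pool 1 and -0.0016 in pool 2.

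Scn1a encodes Nav1.1, the pore-forming subunit of a voltage-gated sodium channel that carries much of the sodium current of fast-spiking interneurons. Loss of 1 copy causes Dravet syndrome, a childhood epilepsy, and in mice weakens the firing of inhibitory interneurons. Bursts of neuronal firing are known to switch on immediate early genes such as Fos, Fosb and Npas4 within minutes, and astrocytes answer seizures and injury by raising Gfap, which encodes their intermediate filament. Transcripts of both kinds are therefore read in epilepsy models as records of past activity and of glial reaction.

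The Scn1a+/- libraries were the shallower ones, with 11606720 counts in pool 1 and 17813918 in pool 2 against 21816220 to 24011969 in wild type. Both pools differed from each other more than any other replicate pair outside the seizure group, with a chi-square per degree of freedom of 8.59. The P24 F1 wild-type pairs gave 2.49 to 5.10, and the next highest pair, of P24 libraries of the 129S6 strain, gave 7.37. The values of both pools are therefore given for the genes that the results turn on. Markers of the hippocampal cell types were present in all 5 libraries, among them Prox1 of dentate granule cells (99.4 to 117 CPM), Grik4 of CA3 (63.1 to 70.0 CPM) and Gad1 of GABAergic neurons (161 to 219.8 CPM). Markers of neighbouring tissue ranged from Drd2 of the striatum (1.17 to 2.45 CPM) and Tcf7l2 of the thalamus (5.91 to 9.00 CPM) to Ttr of the choroid plexus (385 to 675 CPM).

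Scn1a (chromosome 2, 66270781 to 66440837, mm10) was lower in both Scn1a+/- pools. It stood at 115 CPM in pool 1 and 93.5 in pool 2, against 129.6, 125 and 129 in the wild-type libraries, that is 90.4% and 73.2% of the wild-type mean. The groups did not overlap, and pool 1 lay nearer to wild type than pool 2. The log2 difference was -0.30 ± 0.065 (SE), with an adjusted p of 0.0153. With pool 1 as the only Scn1a+/- library the gene was not called (adjusted p = 0.412), and with pool 2 alone it was (adjusted p = 0.000163). The labels do not say which part of the gene is disrupted, and reads from the disrupted allele may be counted.

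None of the other 10 sodium channel subunits tested was called. Scn8a, which encodes Nav1.6 of the axon initial segment, measured 448 and 381 CPM against 466, 447 and 449 (log2 difference -0.13, adjusted p = 0.319). Scn2a1, which encodes Nav1.2, measured 331 and 266 CPM against 344, 316 and 314 (log2 difference -0.12, adjusted p = 0.436). For both genes pool 2 lay under all 3 wild-type libraries, and with pool 2 as the only Scn1a+/- library both were called lower. Scn3a, the subunit prominent before birth, differed by 0.02 (adjusted p = 0.94).

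**Figure D1:**
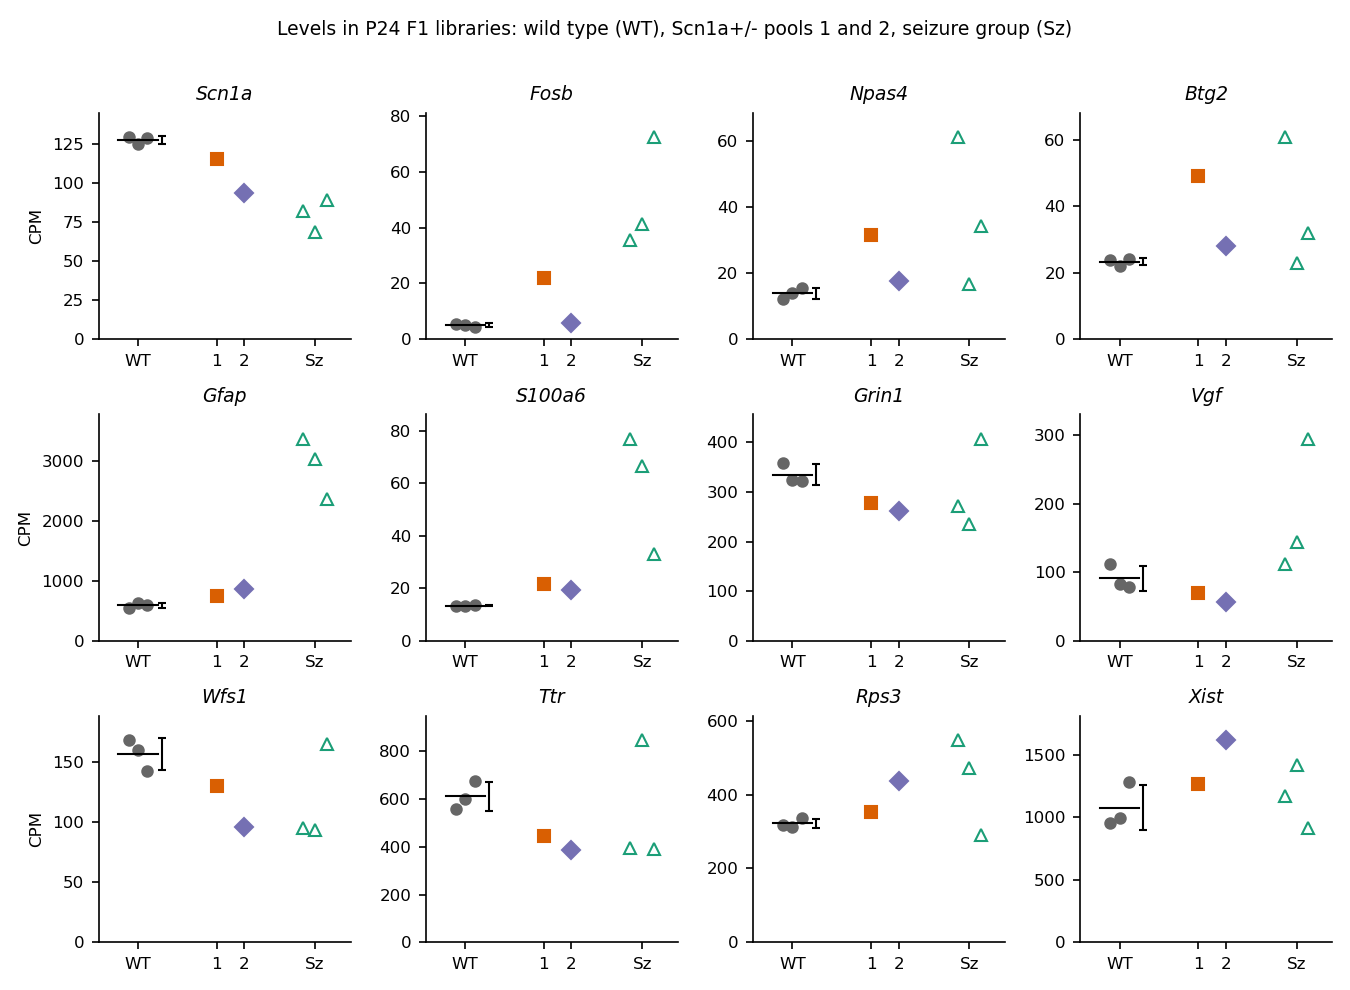
Levels in CPM of 12 genes in the P24 F1 libraries. Circles are the 3 wild-type libraries with their mean (line) and SD (bar), the square and the diamond are Scn1a+/- pools 1 and 2, and triangles are the 3 libraries labelled with seizures (Sz), which were not in the test. Fosb is high in pool 1 and in the Sz libraries only, at 22.0 CPM in pool 1 against 5.65 in pool 2, while Grin1 lies at nearly the same level in both pools, 279 and 262 CPM, under all 3 wild-type libraries.

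Of the 15690 genes tested, 200 (1.27%) were called, 92 higher (0.586%) and 108 lower (0.688%) in Scn1a+/-. At an unadjusted p under 0.05, 843 were higher (5.37%) and 1095 lower (6.98%). The differences were small. Only 7 called genes reached 1.5-fold, all of them higher: Fosb, Npas4, Fos, Btg2, Kcnj2, Kcne1l and S100a6. DESeq2 gave none of these 7 an adjusted p, so they were not among its calls. The median size was 0.31 on the log2 scale for genes called higher and 0.28 for genes called lower. In 194 of the 200 genes both pools lay outside the wild-type range on the same side, which held for 14.3% (above) and 15.2% (below) of all genes tested. The called genes were picked by their p in these same libraries, so that share was largely fixed by the choice and is no separate evidence. Pool 2 lay farther from wild type than pool 1 for 158 of the 200, and the exceptions included the largest rises, Fosb, Fos, Npas4, Btg2 and Kcnj2.

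**Figure D2:**
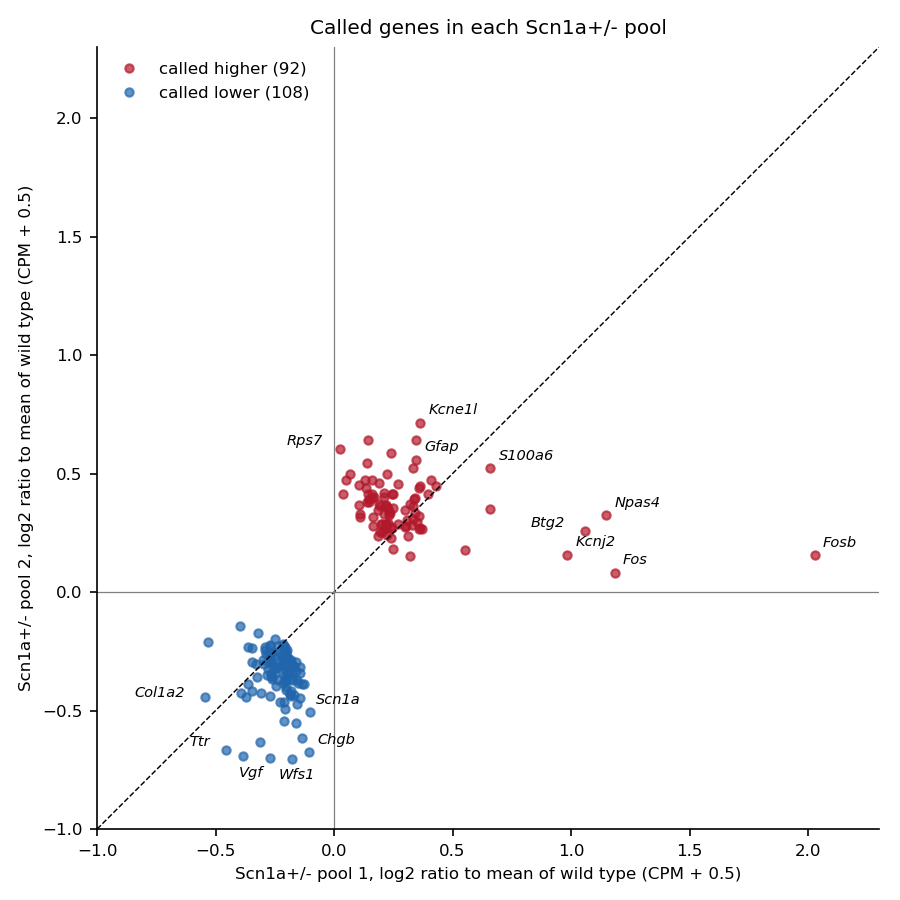
Each called gene by its log2 ratio to the wild-type mean in Scn1a+/- pool 1 (horizontal) and pool 2 (vertical), on CPM + 0.5, with equal ratios on the dashed line. Most of the 92 genes called higher and 108 called lower lie on the pool 2 side of that line, and 5 genes, led by Fosb, lie far to the right, where the ratio of pool 1 is much larger than that of pool 2.

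The number of calls depended on single libraries and on the spread taken from other groups. Without wild-type library 1 no gene was called by edgeR (1202 genes had an unadjusted p under 0.05, and the smallest adjusted p was 0.0632), while 72 were without wild-type library 2, and the fits of each pool alone gave 22 for pool 1 and 561 for pool 2. With only the 5 libraries in the fit 3 genes were called by edgeR and 66 by DESeq2. With all 22 libraries DESeq2 called 389 (2.48%), of which 165 were among the 200. That DESeq2 fit gave no adjusted p to Rem2, Rasd1, Col1a2, Lhfpl3, Rps19, Rpl39, Rps7 and Uchl4, which edgeR called. Wild-type library 1 held the highest sum over the 108 genes called lower, 36784 CPM against 32868 and 32343 in the other wild-type libraries, with 28971 in pool 1 and 26569 in pool 2. Those genes were picked in a fit that held this library, so the sums are partly fixed by the choice. The 200 genes were each called under 2 to 16 of 20 alternative settings, with a median of 7. Gfap was called under 16, Scn1a and Ttr under 12 and Fosb under 11, while Rps7 was called under 5, Rem2 and Lhfpl3 under 4, Col1a2 under 3 and Uchl4 under 2.

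**Figure D3:**
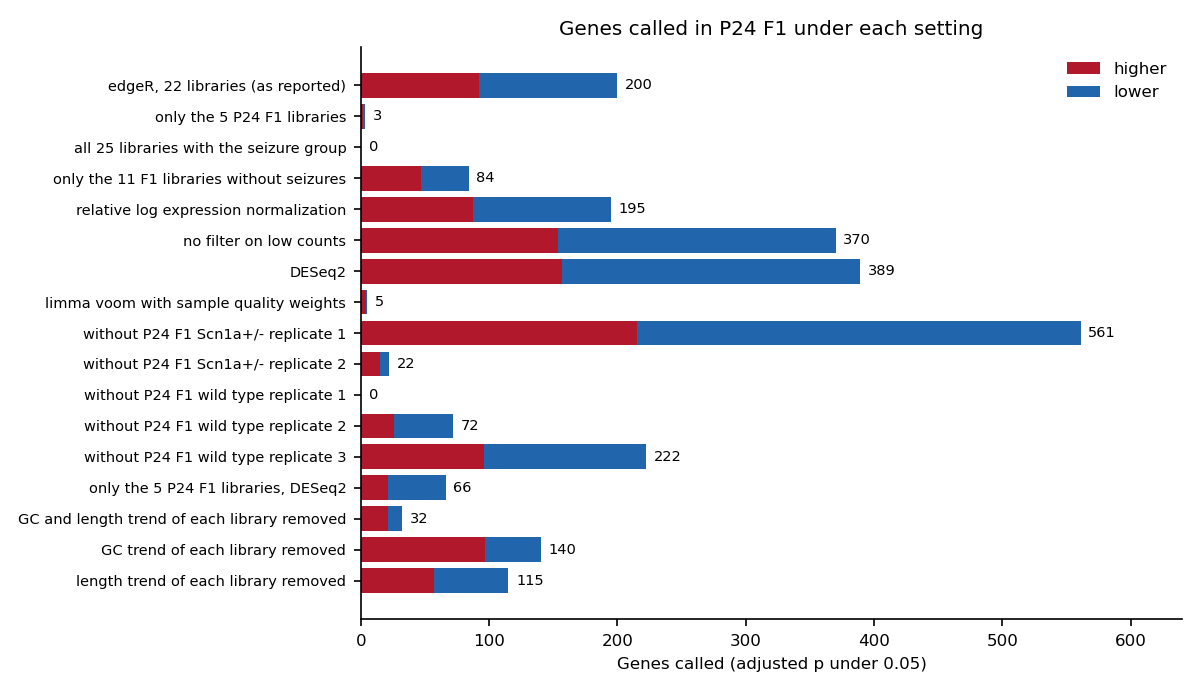
Genes called higher (red) and lower (blue) in Scn1a+/- under the reported setting and under the alternatives. Those that removed GC and length trends and also left out libraries are not drawn. The count runs from 0 without wild-type library 1 (1202 genes at an unadjusted p under 0.05) or with the seizure libraries in the fit (889) to 561 with pool 2 as the only Scn1a+/- library.

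Levels in the Scn1a+/- pools also followed properties of the transcripts. In pool 1 the median log2 ratio to wild type went from 0.15 for transcripts of up to 40% GC to -0.15 for those over 60% GC. In pool 2 it was 0.23 for the 175 transcripts of up to 750 bases and -0.05 for those over 6000 bases. Wild-type libraries, whose mean is the reference, stayed within 0.05 of 0 in every class. The 3 libraries labelled with seizures stood at 0.40, 0.29 and -0.17 for the shortest transcripts and at -0.05, -0.04 and 0.02 for those richest in GC. The 11 P14 libraries, each against the wild type of its own strain, ran from -0.08 to 0.04 for the shortest and from -0.13 to 0.03 for the richest in GC. The 6 P24 libraries of the 129S6 strain were left out of these ranges because their titles and file names disagree on genotype. Genes called higher had a median length of 1546 bases and 46.9% GC, and genes called lower 3633 bases and 56.1% GC, against 3414.5 bases and 50.3% for all genes tested. When the trend of each library on GC and length was removed, 32 genes were called (0.209%), 21 higher (0.137%) and 11 lower (0.072%), and 25 of them were among the 200. The 25 included Gfap, Btg2, Fosb, Npas4, Scn1a, Ttr, Enpp2 and Vgf. Among the genes that reached 1.5-fold, Fos, Kcnj2, Kcne1l and S100a6 lost their calls in that edgeR fit, with adjusted p of 0.0656, 0.0623, 0.0505 and 0.0656. In the gene lists described below, all calls among astrocyte markers, oligodendrocyte precursor genes, potassium channels, calcium channels, glutamate receptors, synaptic vesicle genes, CA1 markers, neurogenesis genes and leptomeningeal genes were lost when the trends were removed.

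**Figure D4:**
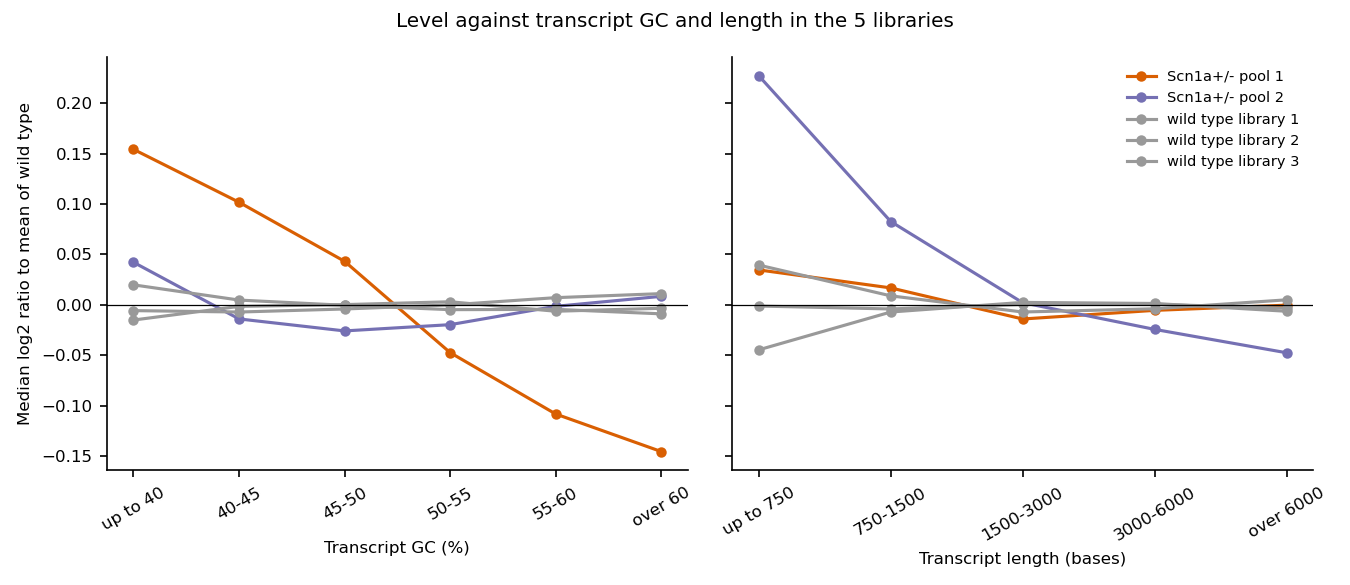
Median log2 ratio to the wild-type mean by transcript GC (left) and length (right) in the 5 libraries. Pool 1 falls steadily with GC, from 0.15 to -0.15, and pool 2 is high for short transcripts, at 0.23. The grey wild-type libraries, whose mean is the reference, stay within 0.05 of 0.

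The largest rises were of immediate early genes, and they were larger in pool 1. 4 of 47 tested were called higher by edgeR (0.586% of all genes tested were) and none lower: Fosb, Npas4, Btg2 and Fos. DESeq2 called none of the 47 in either direction and gave these 4 no adjusted p. With the trends on GC and length removed, Fosb, Npas4 and Btg2 kept their calls and Fos lost its own. Fosb, a partner of Jun in the AP-1 transcription factor, stood at 22.0 CPM in pool 1 and 5.65 in pool 2, against 5.51, 5.24 and 4.29 in the wild-type libraries. Pool 1 lay far above the wild-type libraries, and pool 2 just above the highest of them. The log2 difference was 1.40 ± 0.28 (SE), with an adjusted p of 0.0115. Npas4, a neuron-specific transcription factor induced by calcium entry, stood at 31.4 CPM in pool 1 and 17.6 in pool 2, against 12.3, 13.9 and 15.6 in the wild-type libraries (log2 difference 0.78, adjusted p = 0.0153). Btg2, an antiproliferative gene of the same early response, stood at 49.1 CPM in pool 1 and 28.0 in pool 2, against 23.7, 22.1 and 24.1 in the wild-type libraries (log2 difference 0.70, adjusted p = 0.00559). Both pools were above all wild-type libraries for Npas4 and Btg2. Fos stood at 23.1 CPM in pool 1 and 10.5 in pool 2, against 10.8, 9.85 and 9.09 in the wild-type libraries (log2 difference 0.72, adjusted p = 0.0357), and pool 2 lay within the wild-type range.

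A window of 250 bases is shown for each of these 4 genes because cyclic AMP response elements are the best known entry point of calcium signals to early genes. The Btg2 and Fos windows lie directly ahead of the annotated gene. That of Fosb overlaps its gene, which begins at 19310118 on the minus strand. That of Npas4 lies within the annotated span of its gene, 4984353 to 5003439. Sequences are from RefSeq (GRCm38.p6, the assembly of mm10), written 5′ to 3′ on the gene's own strand. Capitals mark TGACG and CGTCA, the half-sites of the full element TGACGTCA, searched on both strands. The windows lie at chr7:19310046-19310295 (minus strand) for Fosb, chr19:4989972-4990221 (minus strand) for Npas4, chr1:134079156-134079405 (minus strand) for Btg2 and chr12:85473640-85473889 (plus strand) for Fos.
Fosb: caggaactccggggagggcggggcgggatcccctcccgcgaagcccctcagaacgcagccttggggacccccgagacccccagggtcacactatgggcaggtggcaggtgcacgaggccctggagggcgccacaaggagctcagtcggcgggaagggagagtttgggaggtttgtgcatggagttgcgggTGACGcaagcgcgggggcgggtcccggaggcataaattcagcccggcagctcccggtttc
Npas4: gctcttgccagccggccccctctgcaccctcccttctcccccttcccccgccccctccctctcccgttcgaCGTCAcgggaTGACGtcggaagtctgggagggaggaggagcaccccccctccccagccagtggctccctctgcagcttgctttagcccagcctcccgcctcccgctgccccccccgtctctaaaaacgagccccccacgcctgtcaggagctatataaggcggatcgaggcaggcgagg
Btg2: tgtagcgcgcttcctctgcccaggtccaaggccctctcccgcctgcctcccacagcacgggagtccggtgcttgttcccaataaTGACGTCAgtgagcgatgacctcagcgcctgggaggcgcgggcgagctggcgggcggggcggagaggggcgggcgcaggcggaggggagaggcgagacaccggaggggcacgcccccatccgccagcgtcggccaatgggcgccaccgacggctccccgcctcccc
Fos: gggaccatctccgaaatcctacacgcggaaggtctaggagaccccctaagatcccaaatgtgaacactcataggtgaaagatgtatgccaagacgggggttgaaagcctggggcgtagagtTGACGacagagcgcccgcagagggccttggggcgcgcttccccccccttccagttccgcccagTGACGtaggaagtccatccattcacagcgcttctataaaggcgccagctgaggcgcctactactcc
A half-site was in all 4 windows, 1 in Fosb and 2 in each of the others, and the full element, in which both half-sites overlap, only in Btg2. Over all 32851 windows of this length, 17.8% held a half-site and 1.55% the full element. A match describes letters in the window and shows no binding.

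Over the whole list of immediate early genes the pools went opposite ways. Pool 1 was above all wild-type libraries for 29 of 47 genes (33.0% of all genes tested were) and below for 8. Pool 2 was above for 7 and below for 27 (34.0% of all genes tested were below). The median log2 ratio to wild type was 0.17 in pool 1 and -0.11 in pool 2, and the fitted median was 0.01. Egr1, a zinc-finger factor, stood at 77.4 CPM in pool 1 and 50.3 in pool 2, against 73.2, 73.7 and 68.2 in the wild-type libraries. Nr4a3, an orphan nuclear receptor, stood at 118 CPM in pool 1 and 72.6 in pool 2, against 94.1, 87.4 and 89.3 in the wild-type libraries. Pool 1 was above and pool 2 below all wild-type libraries for both genes. Arc, which encodes a protein of active synapses, measured 157 and 117 CPM against 128, 149.7 and 133 and was not called (adjusted p = 0.989). Fitted alone, pool 1 had 6 of these genes called higher (0.0935% of all genes in that fit were) and none lower (0.0437%), namely Btg2, Fosb, Fos, Npas4, Ptgs2 and Nr4a3. Pool 2 alone had 5 called lower (2.15%) and none higher (1.34%), namely Plk2, Egr1, Dusp6, Nr4a3 and Egr3. Nr4a3 was thus called in opposite directions in the pools.

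Kcnj2, which encodes the inward rectifier Kir2.1, was likewise high in pool 1 and near wild type in pool 2. It stood at 30.05 CPM in pool 1 and 16.7 in pool 2, against 14.6, 14.5 and 15.8 in the wild-type libraries (log2 difference 0.61, adjusted p = 0.0234). It was the only call among 64 potassium and HCN channel genes (1.27% of all genes tested were called), whose median was -0.09. Kcne1l, a small accessory subunit of potassium channels, was higher in both pools at 8.31 CPM in pool 1 and 10.7 in pool 2, against 6.58, 5.58 and 6.87 in the wild-type libraries (log2 difference 0.61, adjusted p = 0.0313).

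Gfap (chromosome 11, 102887336 to 102897200, mm10) was higher in both pools. It stood at 749 CPM in pool 1 and 867 in pool 2, against 546, 627 and 594 in the wild-type libraries. Both pools were above all wild-type libraries, and the log2 difference was 0.46 ± 0.079 (SE), with an adjusted p of 0.00559. It was the only call among 31 genes of reactive astrocytes tested (1.27% of all genes tested were called), whose median was 0.12. Both pools were above all wild-type libraries for 12 of the 31 and below for 3, against 14.3% and 15.2% of all genes tested. At an unadjusted p under 0.05, 6 were higher and 1 lower, against 5.37% and 6.98%. Vim, another intermediate filament gene of reactive astrocytes, measured 51.1 and 45.7 CPM against 43.9, 43.3 and 40.4 (adjusted p = 0.367), Serpina3n 114 and 99.1 CPM against 116, 106 and 108 (adjusted p = 0.874), and Lcn2 did not pass the filter on low counts. S100a6, which encodes a calcium-binding protein found in astrocytes and neural stem cells, stood at 21.5 CPM in pool 1 and 19.5 in pool 2, against 13.3, 13.2 and 13.7 in the wild-type libraries (log2 difference 0.60, adjusted p = 0.0161).

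Among 29 markers of astrocytes in general, 2 were called higher (0.586% of all genes tested were) and none lower (0.688%), and the list median was 0.07. Fabp7, a fatty acid carrier of radial glia and young astrocytes, stood at 72.1 CPM in pool 1 and 74.9 in pool 2, against 52.4, 61.8 and 56.8 in the wild-type libraries (log2 difference 0.37, adjusted p = 0.0175). Mt3, a brain metallothionein, stood at 436 CPM in pool 1 and 567 in pool 2, against 413, 429.9 and 432 in the wild-type libraries (log2 difference 0.24, adjusted p = 0.0427). Pool 2 carried most of the rise of Mt3. The glutamate transporter gene Slc1a2 differed by 0.12 (adjusted p = 0.283) and the connexin gene Gja1 by 0.04 (adjusted p = 0.832). The list summed to 13405 CPM in pool 1 and 14478 in pool 2, against 12811, 13809 and 13045 in wild type, so that the total in pool 1 lay within the wild-type range and that in pool 2 above it. In these bulk libraries, more cells of a type and more RNA per cell cannot be told apart.

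No microglial marker of 30 was called by edgeR, 8 had an unadjusted p under 0.05, all higher (5.37% of all genes tested were), and DESeq2 called 2 higher. The median was 0.14, with 0.04 in pool 1 and 0.20 in pool 2. Pool 2 was above all wild-type libraries for 26 of 30 markers and pool 1 for 13, against 32.5% and 33.0% of all genes tested. P2ry12, a receptor of resting microglia, measured 59.8 and 60.4 CPM against 49.0, 53.0 and 49.7 (adjusted p = 0.0778). Tmem119 measured 25.4 and 32.2 CPM against 26.0, 30.1 and 26.7 (adjusted p = 0.821). Of 22 cytokine and innate immune genes tested, none was called by edgeR or DESeq2 and 1 in each direction had an unadjusted p under 0.05. In the oligodendrocyte lineage, 1 of 20 precursor genes was called, Lhfpl3 (1.27% of all genes tested were called). It stood at 35.2 and 36.3 CPM against 28.0, 28.2 and 29.2 (log2 difference 0.33, adjusted p = 0.0473). Of 33 myelin genes none was called by edgeR, with a median of -0.09, and DESeq2 called 1 lower. At an unadjusted p under 0.05, 9 were lower and 1 higher, against 6.98% and 5.37% of all genes tested.

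Genes of neuronal transmission were among the lower ones. Of 34 genes of synaptic vesicle release, 5 were called lower (0.688% of all genes tested were) and none higher, with a median of -0.11. Among the 5, Rab3a, a vesicle GTPase, stood at 297 CPM in pool 1 and 262 in pool 2, against 379.8, 314 and 318 in the wild-type libraries (log2 difference -0.27, adjusted p = 0.0318). Syn1, which tethers vesicles, stood at 349 and 292 CPM against 435, 381 and 371 (log2 difference -0.31, adjusted p = 0.0414). Sv2a (-0.26), the target of levetiracetam, and Syp (-0.26), which encodes synaptophysin, were called too, with adjusted p of 0.0424 and 0.0427. DESeq2 called 6 of the 34 lower, but not Syn1 (adjusted p = 0.0736). With the trends on GC and length removed all 5 edgeR calls were lost. Pool 2 was below all wild-type libraries for 27 of the 34 genes and pool 1 for 16, against 34.0% and 34.7% of all genes tested. Snap25 (-0.10) and Syt1 (-0.19) did not pass with both pools and were called lower with pool 2 alone.

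Activity-regulated peptide and late genes were lower where they were called, 3 of 30 tested (0.688% of all genes tested were called lower). None was called higher (0.586%). With the trends on GC and length removed Vgf alone kept its call. Vgf, a neuropeptide precursor that follows activity and BDNF, stood at 69.9 CPM in pool 1 and 56.4 in pool 2, against 112, 83.3 and 78.5 in the wild-type libraries. The log2 difference was -0.54 ± 0.11 (SE), with an adjusted p of 0.0114, and its highest level was in wild-type library 1, without which it was -0.37 (adjusted p = 0.155). Chgb, which encodes chromogranin B of dense-core granules, stood at 316 CPM in pool 1 and 213 in pool 2, against 375, 323 and 321 in the wild-type libraries (log2 difference -0.37, adjusted p = 0.034). Nptx1, a secreted pentraxin that gathers AMPA receptors, stood at 459 and 400.0 CPM against 561, 486 and 506 (log2 difference -0.27, adjusted p = 0.0384). Pool 1 lay close to the wild-type range for Chgb, and pool 2 well below it. DESeq2 called 3 of the 30 lower, but not Chgb (adjusted p = 0.0928). Bdnf measured 62.1 and 48.0 CPM against 55.3, 47.8 and 52.1 (adjusted p = 0.808) and was not called.

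Among receptors and channels, Grin1, the obligatory NMDA receptor subunit, was the only call of 24 glutamate receptor genes, at 279 and 262 CPM against 359, 324 and 323 (log2 difference -0.31, adjusted p = 0.0254). Cacnb1, an auxiliary subunit, was the only call of 24 calcium channel genes, at 103 and 102 CPM against 132, 123 and 121 (log2 difference -0.29, adjusted p = 0.0234). Atp2b2, a plasma membrane calcium pump that clears calcium after firing, stood at 334 and 312 CPM against 402, 379.7 and 376 (log2 difference -0.26, adjusted p = 0.0295). The lists of glutamate receptors and calcium channels had medians below 0, -0.11 and -0.12. Of all genes tested, 1.27% were called. Rem2, a small GTPase that restrains calcium channels and is driven by activity, stood at 11.8 and 9.34 CPM against 14.5, 15.4 and 14.4 (log2 difference -0.50, adjusted p = 0.0467). Rasd1, a Ras-like protein induced by glucocorticoids, stood at 29.4 and 20.2 CPM against 36.3, 34.2 and 29.5 (log2 difference -0.45, adjusted p = 0.0342), and pool 1 was level with wild-type library 3. Adra1d, an α1 adrenergic receptor, stood at 42.9 and 40.7 CPM against 61.6, 51.9 and 53.1 (log2 difference -0.41, adjusted p = 0.0318), and Lingo3, a leucine-rich repeat membrane protein, at 40.4 and 39.6 CPM against 52.7, 53.3 and 49.96 (log2 difference -0.38, adjusted p = 0.0267).

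Several genes of glycolysis, the breakdown of glucose to pyruvate, were lower in both pools. Of 17 tested, 5 were called lower (0.688% of all genes tested were) and none higher (0.586%): Aldoa, Pfkl, Eno2, Pkm and Hk1. Their log2 differences were -0.29, -0.29, -0.30, -0.26 and -0.25, with adjusted p of 0.0153, 0.0153, 0.0187, 0.0234 and 0.0457. With the trends on GC and length removed Aldoa alone kept its call. Aldoa, the muscle and neuronal aldolase, stood at 644 CPM in pool 1 and 619 in pool 2, against 841, 729 and 738 in the wild-type libraries. Aldoc, the aldolase of astrocytes, differed by 0.06 (adjusted p = 0.789). Both pools were below all wild-type libraries for 12 of the 17 genes, against 15.2% of all genes tested. The list was drawn up after these values were seen, and it holds Gapdh and Eno1, which were at 4.05, 3.38 and 3.46 CPM and 1.33, 1.27 and 1.71 CPM in wild type and share reads with many near-identical copies.

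Markers of CA1 pyramidal cells held 2 calls among 17 tested, both lower (0.688% of all genes tested were called lower). Wfs1, which encodes wolframin of the endoplasmic reticulum and marks dorsal CA1, stood at 130.0 CPM in pool 1 and 96.2 in pool 2, against 168, 159.8 and 142 in the wild-type libraries (log2 difference -0.48, adjusted p = 0.0115). Pou3f1, a POU transcription factor, stood at 54.4 and 50.8 CPM against 69.4, 66.9 and 59.4 (log2 difference -0.31, adjusted p = 0.0455). The list median was -0.14. None of 22 dentate granule cell markers was called by edgeR or DESeq2 (2 higher and 3 lower at an unadjusted p under 0.05), and none of 23 CA2 and CA3 markers (1 lower). Of all genes tested, 5.37% were higher and 6.98% lower at an unadjusted p under 0.05. Tubb3, a neuronal tubulin, was the only call of 38 neurogenesis and cell cycle genes (1.27% of all genes tested were called). It stood at 153 and 138 CPM against 191, 173 and 163 (log2 difference -0.27, adjusted p = 0.0393). The list as a whole did not follow Tubb3. Its median was 0.08 (0.07 in pool 1 and 0.09 in pool 2), and 27 of the 38 differences were above 0, against 7730 of all 15690. At an unadjusted p under 0.05, 4 of the 38 were higher and 3 lower.

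No interneuron marker of 33 was called by edgeR. At an unadjusted p under 0.05, 9 were lower (6.98% of all genes tested were) and none higher (5.37%), and DESeq2 called 2 lower. Pvalb, the calcium buffer of fast-spiking basket cells in which Nav1.1 is prominent, measured 41.7 and 42.9 CPM against 35.2, 41.9 and 39.2 (log2 difference 0.13, adjusted p = 0.586). Sst, of somatostatin cells, measured 90.8 and 78.2 CPM against 114, 94.9 and 83.1 (log2 difference -0.21, adjusted p = 0.272). Gad1, which makes GABA, measured 178 and 161 CPM against 219.8, 181 and 176 (log2 difference -0.19, adjusted p = 0.232), with wild-type library 1 the highest. Slc32a1, the vesicular GABA transporter, came nearest to the threshold at 39.5 and 38.3 CPM against 60.4, 47.0 and 43.3 (log2 difference -0.37, adjusted p = 0.0543). Of 22 genes for GABA receptors, synthesis and transport, none was called by edgeR (1 higher and 5 lower at an unadjusted p under 0.05), and DESeq2 called 2 lower.

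Other called genes, named here after their values were seen, included further neuronal genes among the falls. Rbfox3, which encodes the pan-neuronal splicing factor NeuN, stood at 186 and 179 CPM against 228, 210.4 and 202 (log2 difference -0.23, adjusted p = 0.046). App, the amyloid precursor gene, stood at 883 and 672 CPM against 1145, 931 and 884 (log2 difference -0.35, adjusted p = 0.0295), with pool 1 just under the lowest wild-type library. Prrt2, a presynaptic gene of inherited infantile seizures, stood at 198 and 188 CPM against 235, 227 and 222 (log2 difference -0.24, adjusted p = 0.04). Dnm1, the dynamin of vesicle recycling, differed by -0.33 (adjusted p = 0.0154), and Cx3cl1, the neuronal chemokine read by microglia, by -0.35 (adjusted p = 0.0171). Among the rises, Cd63, a tetraspanin of late endosomes, stood at 28.7 and 34.7 CPM against 25.1, 26.1 and 24.1 (log2 difference 0.35, adjusted p = 0.0455). Dbi, whose peptide binds benzodiazepine sites of GABA receptors and which is abundant in glia, stood at 164 and 177 CPM against 133, 143 and 143 (log2 difference 0.29, adjusted p = 0.0153).

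Genes of the choroid plexus and meninges, which border the hippocampus, included Ttr, the largest fall of all called genes. Ttr, the thyroxine carrier transthyretin, stood at 446 CPM in pool 1 and 385 in pool 2, against 557, 599.9 and 675 in the wild-type libraries (log2 difference -0.56 ± 0.14 (SE), adjusted p = 0.0318). Enpp2, which encodes autotaxin, stood at 256 CPM in pool 1 and 236 in pool 2, against 324, 329.8 and 299 in the wild-type libraries (log2 difference -0.37, adjusted p = 0.0234). These were the 2 edgeR calls among 29 choroid plexus and ependymal genes (0.688% of all genes tested were called lower), with a median of -0.16. DESeq2 called neither Ttr (adjusted p = 0.122) nor Enpp2 (adjusted p = 0.0578), and called 1 other member lower. Both pools lay below all wild-type libraries for 14 of the 29, against 15.2% of all genes tested. Plexus genes with little expression elsewhere differed by -0.72 (Aqp1), -0.56 (Clic6) and -0.45 (Kcnj13) and were not called, while the defining factor Otx2 differed by 0.17. The list summed to 978 CPM in pool 1 and 892 in pool 2, against 1176, 1240.0 and 1293 in wild type. Col1a2, a collagen gene of the meninges, was the only call of 29 leptomeningeal and fibroblast genes (1.27% of all genes tested were called). It stood at 10.4 and 11.2 CPM against 17.2, 13.2 and 15.7 (log2 difference -0.50, adjusted p = 0.0455). Ptgds, a prostaglandin synthase of meninges and oligodendrocytes, stood at 203 CPM in pool 1 and 193 in pool 2, against 256, 271 and 248 in the wild-type libraries (log2 difference -0.38, adjusted p = 0.0217). DESeq2 did not call Ptgds (adjusted p = 0.0635). The part of dissection in these differences was not tested.

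A minority of the ribosomal protein genes and of the respiratory chain genes were called higher. Of 78 cytosolic ribosomal protein genes tested, 15 were called higher (0.586% of all genes tested were) and none lower (0.688%), with a median of 0.23. Rps3, of the small subunit, stood at 353 CPM in pool 1 and 437 in pool 2, against 318, 313 and 336 in the wild-type libraries (log2 difference 0.30, adjusted p = 0.0153). Rpl22, of the large subunit, stood at 157 CPM in pool 1 and 169.6 in pool 2, against 128, 135 and 135 in the wild-type libraries (log2 difference 0.31, adjusted p = 0.0104). Rps7 stood at 32.5 CPM in pool 1 and 48.6 in pool 2, against 27.8, 32.2 and 35.5 in the wild-type libraries (log2 difference 0.37, adjusted p = 0.0491), with pool 1 inside the wild-type range. Rpl7 stood at 48.0 and 48.9 CPM against 39.5, 37.0 and 37.3 (log2 difference 0.35, adjusted p = 0.0153). Among the called members Rps19, Rpl39 and Rps18 differed most, with Rps19 and Rpl39 at 0.46 and 0.45, and for these 2 the pools were alike (23.1 and 24.2 CPM against 17.5, 15.7 and 18.6, and 17.2 and 17.5 CPM against 12.3, 12.8 and 12.9). The list median was 0.05 in pool 1 and 0.32 in pool 2. With the trends on GC and length removed, 4 of the 78 were called higher (0.137% of all genes in that fit were), among them Rpl32, Rps19 and Rps3. The median was then 0.14. Ribosomal genes have many processed pseudogenes, so their levels are uncertain.

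Of 74 nuclear genes for oxidative phosphorylation, 8 were called higher (0.586% of all genes tested were) and none lower (0.688%). The median was 0.13 (0.05 in pool 1 and 0.18 in pool 2). Cox7a2, a subunit of cytochrome c oxidase, stood at 194 CPM in pool 1 and 190.4 in pool 2, against 148, 157 and 155 in the wild-type libraries (log2 difference 0.32, adjusted p = 0.0153). Ndufc2, of complex I, stood at 106 and 105 CPM against 85.0, 86.1 and 87.9 (log2 difference 0.29, adjusted p = 0.0153), and Uqcrh, of complex III, at 158 and 173 CPM against 125, 136 and 143 (log2 difference 0.30, adjusted p = 0.0234). The pools were close for all 3. The catalytic subunit gene Atp5b differed by -0.10 (adjusted p = 0.464) and was not called. With the trends on GC and length removed, 1 of the 74 was called higher, Atp5j (0.137% of all genes in that fit were), and the median was 0.04. Uchl4, a deubiquitinase gene that closely resembles Uchl3 and may share its reads, stood at 16.1 and 12.9 CPM against 10.0, 9.93 and 10.1 (log2 difference 0.52, adjusted p = 0.0357).

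**Figure D5:**
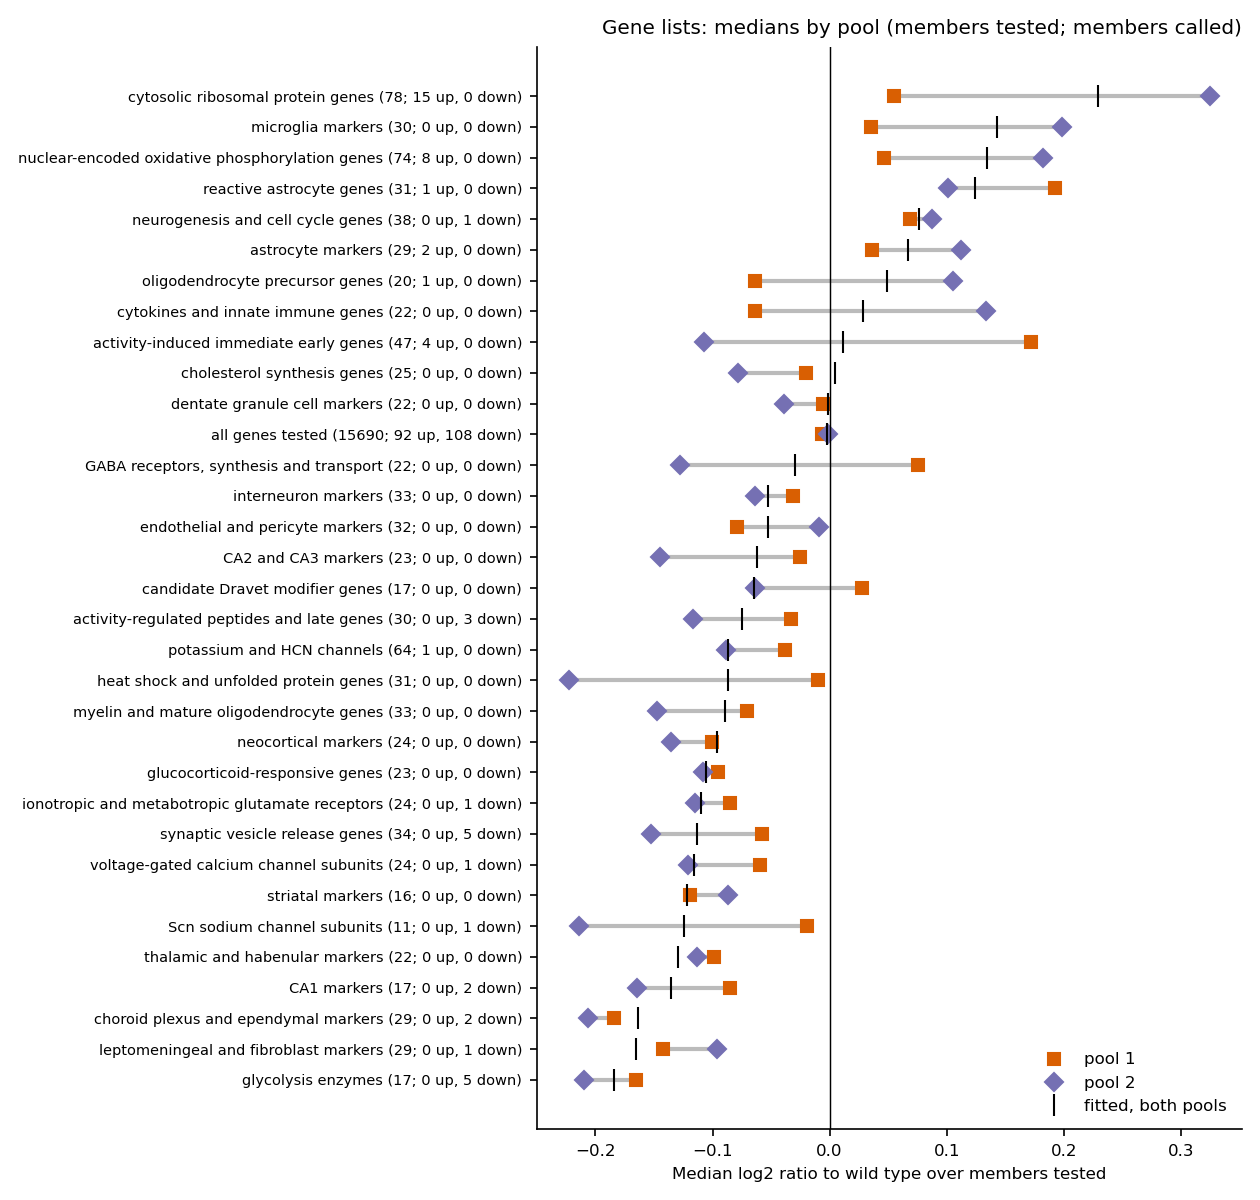
Median log2 ratio to wild type over the tested members of each gene list described here that has at least 10 of them, for pool 1 (square), pool 2 (diamond) and the fit of both (bar). In brackets are members tested and members called. Ribosomal protein genes reach 0.32 in pool 2 and 0.05 in pool 1, and immediate early genes lie at 0.17 in pool 1 and -0.11 in pool 2.

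The remaining lists gave no call by edgeR with both pools, and none by DESeq2. At an unadjusted p under 0.05, 1 higher and 8 lower were found among 31 heat shock and unfolded protein genes, 2 higher and 7 lower among 23 glucocorticoid-responsive genes, 1 higher and 4 lower among 25 cholesterol synthesis genes, and 1 higher and 3 lower among 17 candidate Dravet modifier genes, against 5.37% higher and 6.98% lower of all genes tested. With pool 2 alone, 7 heat shock genes were called lower, Hsph1 and Hsp90ab1 first, and 1 higher, Hspe1, and the list median was -0.22 in pool 2 against -0.01 in pool 1. Among markers of neighbouring regions, 2 of 22 thalamic, 1 of 16 striatal and 3 of 24 neocortical genes were lower at an unadjusted p under 0.05, and 1 neocortical gene higher. Endothelial and pericyte markers (32) and blood cell genes (3 tested) had none, and no mitochondrially encoded gene was among those tested.

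Each pool was also fitted alone against the 3 wild-type libraries, with the spread taken from the other groups. Pool 1 alone gave 22 calls of 16035 genes (0.137%), 15 higher (0.0935%) and 7 lower (0.0437%), and 11 of them were among the 200. Besides the early genes these were led by Kcnj2 and by Tmsb4x, which encodes the actin-binding thymosin β4, at 1845 and 1728 CPM against 1418, 1424 and 1472, and among the falls was Grm2, a presynaptic glutamate receptor gene. Malat1, a long RNA kept in the nucleus, was called lower with pool 1 alone, at 1533 CPM against 1947, 2465 and 2220.3, while pool 2 lay above wild type with 2856. Pool 2 alone gave 561 calls of 16100 genes (3.48%), 215 higher (1.34%) and 346 lower (2.15%), and 167 were among the 200. They were led by Chgb, by the vesicle gene Sv2b at 409.6 and 275 CPM against 435, 393 and 377, by Mt3 and by ribosomal protein genes. Fosb, Fos, Npas4, Btg2 and Kcnj2 had adjusted p of 0.881, 0.919, 0.451, 0.327 and 0.728 with pool 2 alone. A single pool has no replicate, so these fits assume that it varies like the pools of other groups.

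The balance of sexes within the pools is not given in the sources used here. Xist, transcribed from the inactive X chromosome of females, stood at 1269 CPM in pool 1 and 1617 in pool 2, against 951, 994 and 1281 in the wild-type libraries. It was called higher by edgeR (log2 difference 0.43, adjusted p = 0.04) and not by DESeq2 (adjusted p = 0.146). Pool 1 lay within the wild-type range and pool 2 above it. The Y-linked genes Ddx3y (-0.08), Kdm5d (-0.04), Eif2s3y (0.06) and Uty (-0.17) had adjusted p from 0.675 to 0.959, and Tsix, antisense to Xist, differed by 0.17 (adjusted p = 0.944). The kit did not mark strand, so reads of Xist and Tsix cannot be told apart.

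The same genotype comparison in F1 mice at postnatal day 14 (P14), before the usual onset of seizures, had 3 libraries of each genotype and shares no library with that at P24. No gene was called there by edgeR, and 1116 had an unadjusted p under 0.05. Scn1a differed by -0.18 ± 0.061 (SE) at P14, with an adjusted p of 0.613, at 91.3 ± 1.17 against 103 ± 2.20 CPM (SD, n = 3). The genotype difference in Scn1a at P24 was not found to differ from that at P14 (interaction -0.12 ± 0.089, adjusted p = 0.675). In the test of the difference between ages, 5 genes were called (0.0319%): Cox7a2, Pfdn5, Gfap, Nol7 and Pfkl. Gfap at P14 stood at 587, 579 and 595 CPM in Scn1a+/- and 629, 611 and 650.1 in wild type. Its difference at P24 exceeded that at P14 by 0.56 ± 0.11 on the log2 scale (SE), with an adjusted p of 0.0209. Fosb at P14 differed by 0.07, and its interaction of 1.33 did not pass (adjusted p = 0.185).

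Levels in the 3 libraries labelled with seizures, which were not tested here, are given for the same genes as a description. Gfap stood at 3370.1, 3031 and 2358 CPM there, against 749 and 867 in the seizure-free pools. S100a6 stood at 77.0, 66.7 and 33.1 CPM, and Fosb at 35.7, 41.5 and 72.5, so that all 3 libraries were above both seizure-free pools for these 3 genes. Btg2 stood at 60.9, 23.1 and 31.9 CPM, and pool 1 with 49.1 lay between the first of these and the others. Vgf stood at 112, 144 and 295 CPM, against 69.9 and 56.4 in the seizure-free pools and 112, 83.3 and 78.5 in wild type. Kcne1l stood at 17.3, 13.7 and 16.2 CPM, above both seizure-free pools, and Scn1a at 82.1, 68.8 and 89.1, below both.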

How the data were processed

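Frozen hippocampi were extracted with TRIzol and sequenced as libraries of the TruSeq RNA Library Preparation Kit v2, per the labels' protocols. That kit does not mark strand. CASAVA, TopHat2 2.1.0, HTSeq 0.6.1p1 and mm10 are named in the submitters' processing notes. Gene annotation and strand setting were not given in the sources used here. The deposited counts of 24421 genes were whole reads per gene symbol, and 15690 passed edgeR's filterByExpr with a minimum count of 10. The deposited normalized signal table holds counts divided by a factor per library. Its columns titled as wild-type libraries 1 and 3 matched each other's count files (tolerance 0.1%), so the table was used only for this check, libraries are numbered here by their count files, and 20 other columns of per-sample values were not used.

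Counts were scaled by TMM and tested with edgeR 4.0.16 (R 4.3.3) in a quasi-likelihood fit of 22 libraries outside the seizure group, with a coefficient for each of 8 groups. The P24 libraries of the 129S6 strain, whose titles and file names disagree on genotype, gave only the spread. Libraries of a group varied by 5.44% (edgeR's common coefficient of variation) on 14 residual degrees of freedom. The difference between ages was an interaction term of the same fit. Ratios of single pools to the wild-type mean used CPM + 0.5. Alternatives were DESeq2 1.42.0, limma 3.58.1 (voom with sample quality weights), other normalization, filters and libraries, each library left out, and, added after the data were seen, removal of each library's trend on transcript GC and length (GENCODE vM39, 97.4% of genes tested) with a smooth of basis dimension 6. In simulated counts for this comparison (15555 genes), 32 of 67 genes changed 1.3-fold were called, 56 of 67 changed 1.5-fold and 63 of 66 changed 2-fold, with 10 false calls among 161. The simulation gave both Scn1a+/- pools the same means and took its spread from the fit of 22 libraries. It held neither the difference between the pools nor the GC and length trends, so these counts may not hold for the real libraries.

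The genes, gene lists and libraries described were chosen with earlier results of these data known. Named genes were the 10 largest rises and falls, up to 3 called members of each list, the 6 called genes whose pools differed most, and Scn1a, Fosb, Fos, Npas4, Gfap, Vgf, Ttr and the sex-specific genes. Every further gene was picked once its values had been seen, among them Sv2a, Syp, Rpl32, Atp5j, Atp2b2, the members of the glycolysis list and those named for one pool alone. Some called genes are not reported here.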

Additional observations from a re-analysis of the deposited data

Results flagged for a closer look

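The genotype difference at P24 differed from that at P14 in the F1 strain for 5 genes by edgeR's interaction test with Benjamini-Hochberg adjustment over 15690 genes. The Gfap difference at P24 (0.46) exceeded that at P14 (-0.10) by 0.56 on the log2 scale (adjusted p = 0.0209), with both pools above wild type at P24 and all 3 Scn1a+/- libraries below wild type at P14. Pfdn5, a subunit of the prefoldin chaperone, differed by 0.54 between the ages (adjusted p = 0.0113). It stood at 86.7 and 90.1 CPM against 66.7, 67.0 and 71.3 at P24, and at 58.1, 69.3 and 69.4 against 77.9, 75.9 and 66.1 at P14. Cox7a2 differed by 0.50 (adjusted p = 0.0113), with a difference of 0.32 at P24 and -0.18 at P14. Nol7, a nucleolar protein gene, differed by 0.50 (adjusted p = 0.0276), with 0.34 at P24 and -0.15 at P14. Pfkl, the liver-type phosphofructokinase, differed by -0.42 (adjusted p = 0.0333), with -0.29 at P24 and 0.13 at P14. None of the 5 genes was called at P14 on its own, where the adjusted p ran from 0.613 to 0.786. Without P24 wild-type library 1 none of the 5 was called by edgeR (1187 genes of all tested had an unadjusted p under 0.05).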

How the results depend on the processing

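The number of genes called at P24 was 200, and 5 for the difference between ages. With relative log expression normalization they were 195 and 5. For the P24 comparison edgeR called 3 with only the 5 libraries, 0 with all 25 (889 at an unadjusted p under 0.05), 84 with the 11 F1 libraries without seizures and 370 without a filter. DESeq2 called 389, and 66 with only the 5 libraries, and limma voom with sample quality weights 5 (4 higher, 1 lower). Leaving out 1 library gave 0 to 561. With GC and length trends removed 32 were called (21 higher, 11 lower, against 92 and 108), 140 with GC alone (97 and 43), 115 with length alone (57 and 58) and 3 with only the 5 libraries, and leaving out 1 library after trend removal gave 6 to 557 (6, 12 and 557). For the difference between ages the counts were 0 with all 25 libraries (804 at an unadjusted p under 0.05), 2 with the 11 F1 libraries, 234 without a filter, 168 by DESeq2, 3 by limma voom, 19, 41 and 6 with both trends, GC or length removed, 0 to 664 without 1 library, and 1 to 642 without 1 library after trend removal. The cause of these shifts was not tested. Rps7 turned to -0.0518 with trends removed and pool 1 as the only Scn1a+/- library. The 43 called genes of the naming rule otherwise kept their direction where they had a value. No paired analysis was possible because the titles number libraries over the whole series and the groups share no number. With 2 Scn1a+/- libraries, 1 of them of 11606720 counts, differences under 1.5-fold were often missed in simulated counts, which gave both pools the same means.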
